A study of Arabidopsis thaliana with 2 samples.

Results

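The transcripts of 10 genes that encode the photoreceptors of Arabidopsis thaliana were compared between wild-type (WT) seedlings and jmj17-1 mutant seedlings, both in the Col-0 background. The genes were picked by locus identifier and not by a rule on measured values, though with earlier results of these data known. They are 5 phytochromes, 2 cryptochromes, 2 phototropins and the UV-B receptor UVR8, out of 26743 features in the deposited table. All 10 were present, and all 10 passed the filter of a mean level of at least 1 RPKM, which kept 18969 features. RPKM corrects a read number for feature length (per kilobase) and for library depth (per 1000000 reads). Levels can then be set side by side between genes only as far as the feature lengths fit, and the authors' lengths are not stated.

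Whole seedlings were 7 days old and had been raised on plates that held no sucrose, in days of 16 h light and 8 h dark. JMJ17 encodes a demethylase of lysine 4 on histone H3, and jmj17-1 is a mutant allele whose lesion is not described in the labels. The series is titled for chlorophyll biosynthesis as dark-grown seedlings reach light, and the labels mention dark-grown seedlings that are not analysed here. Each genotype had 1 library, so no difference below has a replicate check and none carries a p-value of its own. The sources used here do not give how many seedlings made up a library. In whole seedlings, fewer cells that make a transcript and less of the transcript per cell cannot be told apart.

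Photoreceptors are the proteins through which a plant reads the colour, direction and length of the light. Phytochromes absorb red and far-red light through a bilin pigment and switch between an inactive and an active form, and the active form enters the nucleus and removes growth-promoting PIF transcription factors. Cryptochromes carry a flavin, absorb blue light and, with the phytochromes, restrain the ubiquitin ligase COP1, which otherwise degrades the light-response factor HY5. Phototropins are flavin-binding kinases of the plasma membrane that steer bending towards light, chloroplast movement and stomatal opening, while UVR8 senses UV-B with its own tryptophans. Phytochromes and cryptochromes are the receptors through which a dark-grown seedling begins to green when it reaches light.

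The estimated depth was 53890006 reads in WT and 45403267 in jmj17-1. At these depths 1 RPKM on a 3000-base transcript equalled about 162 WT reads and 136 jmj17-1 reads. JMJ17 (AT1G63490) stood at 5.48 RPKM in WT against 2.90 in jmj17-1 (fold 0.529, 95% counting interval 0.477 to 0.587). The mutated gene was therefore lower, and not absent, in the library labelled jmj17-1. The labelled tissue is the whole seedling, and 7 shoot markers and 8 root markers were all above 0 in both libraries. The meristem gene CLV3 was lowest at 0.069 and 0.054 RPKM, about 2 and 1 reads, so a level above 0 shows little by itself. PORA, a gene of dark-grown seedlings, stood at 1.33 and 1.61 RPKM against 7138 and 6948 for the Rubisco subunit gene RBCS1A.

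The sites that bind the pigment are shown here for the phytochromes and the phototropins. In every phytochrome a cysteine carries the bilin, and its codon is in capitals in the coding sequences below, taken from RefSeq (TAIR10.1) and shown from 4 codons before it to 4 codons after.
PHYA: gcaccgcacagcTGCcatttgcagtac
PHYB: gctcctcatggtTGTcactctcagtat
PHYC: gctcctcatggtTGTcacgcacagtat
PHYD: gctcctcatggcTGTcatgctcaatac
PHYE: gctcctcatggcTGCcatacgcagtat
Counted from the first methionine of the longest RefSeq coding sequence, this cysteine is residue 327 of PHYA, 357 of PHYB, 318 of PHYC, 360 of PHYD and 322 of PHYE. Each phototropin has a pair of flavin-binding LOV domains, each with a cysteine that bonds to the flavin in light. Its codon is in capitals, at residues 234 and 512 of PHOT1 and 170 and 426 of PHOT2.
PHOT1 site 1: gtcggcagaaacTGCcgatttttacaa
PHOT1 site 2: cttggaagaaatTGCaggtttctacaa
PHOT2 site 1: gttggaagaaacTGCcggtttctgcaa
PHOT2 site 2: ttggggagaaatTGTcggtttcttcag

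Similarity between members bears on how reads could be divided between them. PHYB and PHYD were the closest pair, with 82.5% identity over 1153 aligned residues. The other 9 phytochrome pairs lay between 47.6% (PHYC and PHYE) and 58.4% (PHYB and PHYE). PHOT1 and PHOT2 shared 61.2% of 891 aligned residues, and CRY1 and CRY2 53.1% of 601. The longest identical stretch of coding sequence between any members was 43 bases, in PHYB from coding base 1946 and in PHYD from 1958, and the next was 35 bases in the phototropins.
PHYB and PHYD: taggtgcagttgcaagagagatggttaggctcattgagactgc
PHOT1 and PHOT2: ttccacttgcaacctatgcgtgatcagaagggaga
The PHYB and PHYD transcripts aligned over 3312 bases at 81% identity, and the sources used here give no read length. Reads that fell wholly inside an identical stretch, of at most 43 bases in the coding sequence, could not be assigned to either gene. The division of such reads between the 2 genes is uncertain. Outside the families, the PHYC transcript aligned with AT5G05305 over 162 bases at 84.6% identity.

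**Figure D1:**
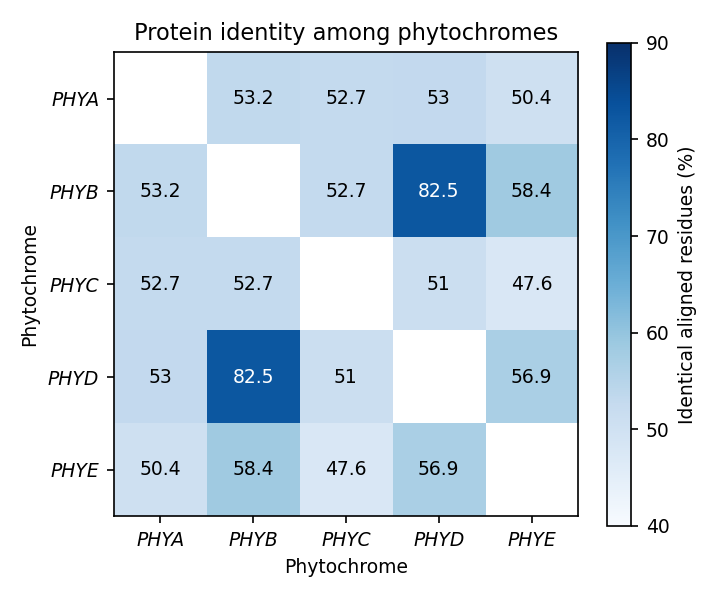
Protein identity among the 5 phytochromes: both axes list the genes, and each square gives the percentage of aligned residues that are identical (colour scale 40 to 90%). PHYB and PHYD stand apart at 82.5%, and the other pairs lie between 47.6% and 58.4%.

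The 4 most abundant receptor transcripts were those of PHOT1, UVR8, CRY1 and CRY2, and the 4 least abundant were PHYB, PHYC, PHYE and PHYD. In WT the order of levels ran PHOT1, UVR8, CRY1, CRY2, PHYA, PHOT2, PHYB, PHYC, PHYE and PHYD. PHOT1 at 88.05 RPKM and PHYD at 3.91 were its ends. In jmj17-1 the last 6 places were the same, and the first 4 were UVR8, PHOT1, CRY2 and CRY1. With no replicates the spread of a level between libraries of 1 genotype is unknown, and only counting error can be given. By that measure CRY1 (95% interval 67.9 to 70.5 RPKM) and CRY2 (67.6 to 70.4) were the only neighbours in the order whose intervals overlapped in WT. In jmj17-1 no neighbours overlapped. These intervals leave out any bias between genes from feature length or from the assignment of reads.

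**Figure D2:**
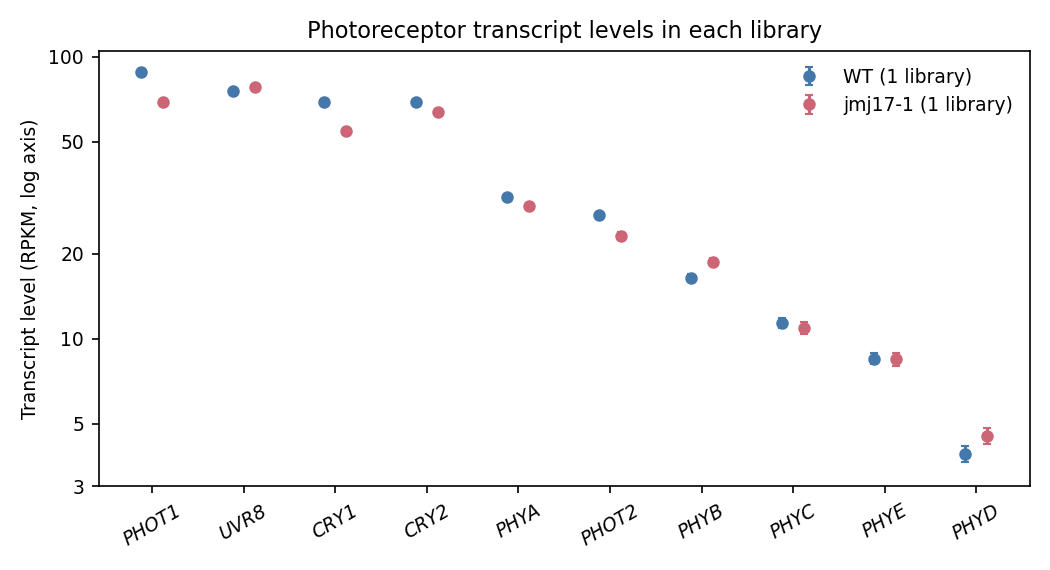
Level of each photoreceptor transcript in RPKM (log axis), 1 point per library, with bars for the 95% counting interval (often smaller than the point). PHOT1 and CRY1 show the widest gaps among the abundant genes, and the order from PHYA down to PHYD is the same in both libraries.

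None of the 10 genes differed 2-fold between the genotypes, where 0.97% of all features did so (184 of 18969, in either direction). Change was measured as a log2 ratio of jmj17-1 over WT after adding 1 RPKM to each level, and it ran from -0.35 to 0.18 over the members. At a smaller limit, a log2 ratio of 0.32 in either direction (80% of the WT level on the lower side), 2 genes were lower in jmj17-1, PHOT1 and CRY1, and none was higher. With 5 RPKM added in place of 1, CRY1 at -0.315 no longer passed and PHOT1 at -0.33 did. Over all features 5.69% were lower by that limit and 5.77% higher. The median of the 10 members was -0.07 against 0.04 for all features, and 7 members lay below 0. Of all features 39.5% lay below 0. Counted over 10 genes and 2 libraries, these shares describe the libraries and not the genotypes.

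**Figure D3:**
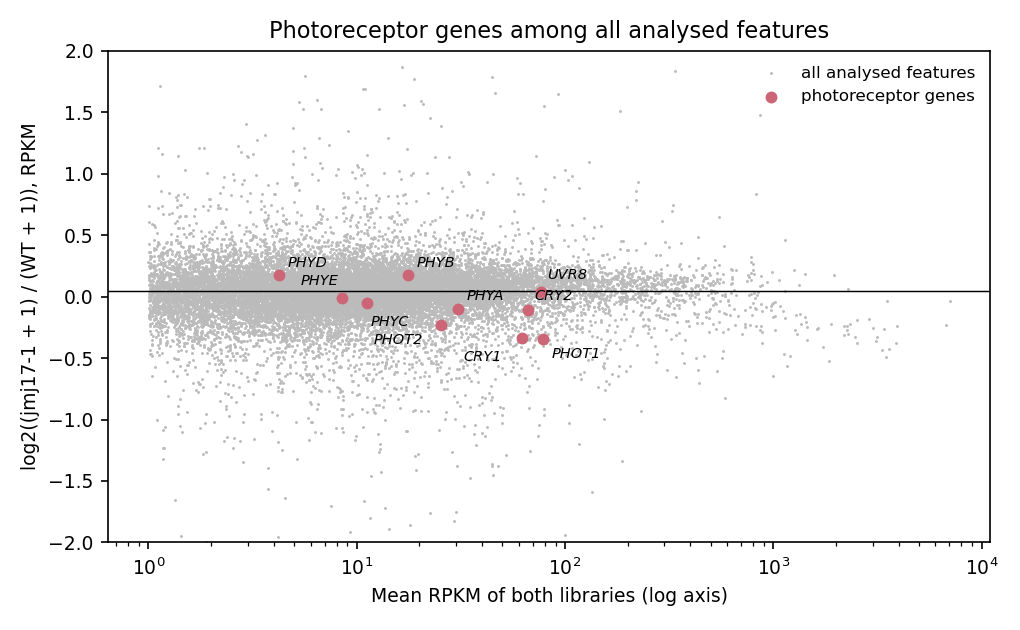
Mean RPKM of both libraries (log axis) against the log2 ratio of jmj17-1 over WT for 18969 features (grey) and the 10 photoreceptor genes (red), with a line at the median of all features, 0.04; 26 features lie outside the plotted range. The members lie inside the grey band. PHOT1 at -0.35 and CRY1 at -0.34 are the lowest of them, with 5.07% and 5.34% of all features lower still.

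The phytochrome family had nearly the same summed level in both libraries. In log2 ratio 3 members lay below 0 and 2 above, where 39.5% of all features lay below. Their summed RPKM was 71.95 in WT and 72.2 in jmj17-1, a fold of 1.003. PHYA, the light-labile receptor of far-red and very weak light (AT1G09570, minus strand of chromosome 1, 3095160 to 3100819), stood at 31.7 RPKM in WT against 29.5 in jmj17-1. The fold was 0.932 (0.898 to 0.967), so the mutant library was slightly lower than counting error alone would give. PHYA made up 44.1% of the phytochrome level in WT and 40.9% in jmj17-1.

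PHYB, the main red-light receptor of light-grown plants (AT2G18790, plus strand of chromosome 2, 8139756 to 8144461), stood at 16.5 RPKM in WT against 18.7 in jmj17-1. Its fold of 1.14 (1.09 to 1.19) was above 1 beyond counting error. PHYD (AT4G16250, minus strand of chromosome 4, 9195247 to 9199840), which acts beside PHYB in shade avoidance, stood at 3.91 and 4.54 RPKM, a fold of 1.16 (1.06 to 1.28). PHYB and PHYD were thus the members with the highest ratios, at log2 values of 0.18 and 0.17, and 80.7% and 80.4% of all features had a lower one. Both stayed inside the smaller limit, which was applied with 1 RPKM added. The counting interval of PHYD reaches past that limit only if the limit is read as a plain fold, with nothing added. No counting interval was computed on the scale with 1 RPKM added. PHYB was 4.21 times as abundant as PHYD in WT and 4.13 times in jmj17-1, a change of ratio of 0.980 with a counting interval of 0.882 to 1.09.

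The other phytochromes were close to equal in the libraries. PHYC, a light-stable phytochrome with a part in day-length responses (AT5G35840, plus strand of chromosome 5, 14007812 to 14011848), stood at 11.4 and 10.9 RPKM (fold 0.963, 0.906 to 1.02). PHYE, which acts with PHYB in stem elongation and germination (AT4G18130, minus strand of chromosome 4, 10042137 to 10046346), stood at 8.51 and 8.46 RPKM (fold 0.994, 0.928 to 1.07). Both intervals contain 1. PHYE overlaps 60 bases of AT4G18140 on the same strand, which stood at 5.66 and 5.39 RPKM. The level of PHYA relative to PHYB, which does not depend on how the libraries are scaled, was 1.92 in WT and 1.58 in jmj17-1. That is a change of ratio of 0.819 (0.772 to 0.870).

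Of the cryptochromes, CRY1 was lower in jmj17-1 and CRY2 differed less. CRY1, the receptor that restrains hypocotyl growth in blue light (AT4G08920, plus strand of chromosome 4, 5723651 to 5727268), stood at 69.2 RPKM in WT against 54.6 in jmj17-1. This fold of 0.790 (0.767 to 0.813) rested on about 11250 and 7485 reads, and its interval reaches across 80% of the WT level. CRY2, a light-labile receptor known from the day-length control of flowering (AT1G04400, minus strand of chromosome 1, 1185512 to 1188696), stood at 68.99 and 63.8 RPKM, a fold of 0.925 (0.897 to 0.955). In WT both cryptochromes had nearly the same RPKM, with a ratio of CRY1 to CRY2 of 1.003. In jmj17-1 that ratio was 0.856, a change of 0.853 with a counting interval of 0.818 to 0.891.

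Both phototropin transcripts were at a lower level in the mutant library. PHOT1, the main receptor of phototropism (AT3G45780, plus strand of chromosome 3, 16816721 to 16824210), stood at 88.05 RPKM in WT against 69.03 in jmj17-1, a fold of 0.784 (0.765 to 0.803). The interval reaches just across 80% of the WT level. PHOT1 had the lowest ratio of the 10 members, and 5.07% of all features had a lower one. For CRY1 that share was 5.34%. PHOT2, which mediates the escape of chloroplasts from strong light (AT5G58140, plus strand of chromosome 5, 23523825 to 23533111), stood at 27.4 and 23.2 RPKM (fold 0.845, 0.805 to 0.885). The summed phototropin level was 115.5 RPKM in WT against 92.2 in jmj17-1, a fold of 0.798. PHOT1 was 3.21 times as abundant as PHOT2 in WT and 2.98 times in jmj17-1. PHOT2 has 7 annotated transcripts and overlaps AT5G58150 on the opposite strand over 2760 bases, and without knowledge of strand in the counting its value is uncertain.

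UVR8 (AT5G63860, minus strand of chromosome 5, 25554416 to 25559499) stood at 75.6 RPKM in WT against 77.8 in jmj17-1. Its fold of 1.03 had an interval of 0.998 to 1.06, which contains 1. The log2 ratio of 0.04 was close to the median of all features and turned to just below 0, -0.011 at the lowest, with that median set to 0 or under quantile normalization. PHOT1 stood above UVR8 in WT, with a ratio of 1.16, and below it in jmj17-1, with a ratio of 0.887. Here 0.762 (0.733 to 0.792) was the change of ratio, the furthest from 1 of the 6 pairs computed, in a pair chosen after its values were seen.

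**Figure D4:**
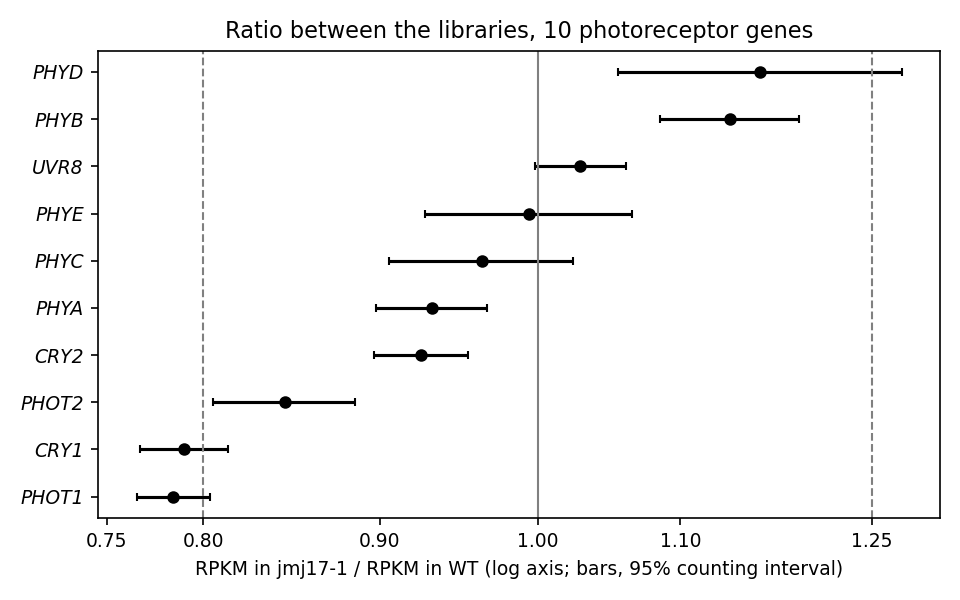
Fold of RPKM in jmj17-1 over WT for the 10 genes (log axis), with 95% counting intervals from approximate reads. The solid line marks 1, and the dashed lines mark the smaller limit in either direction, read as a plain fold. The limit itself was applied with 1 RPKM added, so crossing a dashed line is not the same as passing it. PHOT1 (0.784) and CRY1 (0.790) lie beyond the lower dashed line with intervals that cross it, and PHYB and PHYD lie above 1. The PHYD interval crosses the upper dashed line.

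Measured by counting error alone, 7 of the 10 intervals did not contain 1, those of PHYC, PHYE and UVR8 being the exceptions. The share of all features with such an interval was not computed, so this count does not set the members apart from other genes. Such intervals leave out the spread between seedlings and between library preparations, which 1 library per genotype cannot show. The 4 members at 50 to 100 RPKM, CRY1, CRY2, PHOT1 and UVR8, can be read against 1173 features of like level, of which 6.14% were lower by the smaller limit and 4.43% higher. Long transcripts differed less between the libraries than short ones. Of 1106 features whose shortest transcript has 3000 to 4000 bases, as for CRY1 and PHOT1, 2.71% were lower by that limit. Of 3595 features under 1000 bases, 7.45% were. The median log2 ratio lay between 0.03 and 0.05 at every length.

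Values that could move with these differences were taken beside them. Of 10 clock genes analysed 5 lay above 0 and 5 below, where 39.5% of all features lay below 0. The clock genes had a median of -0.02 and summed levels of 342 and 363 RPKM over all 12. CCA1 and LHY, expressed at dawn, stood at 1.94 and 0.329 RPKM in WT and 1.83 and 0.457 in jmj17-1. TOC1, an evening gene, stood at 54.5 and 51.1 RPKM. By the smaller limit 1 clock gene was lower (10%, against 5.69% of all features) and 1 higher (10%, against 5.77%). The lower was RVE1, a morning gene, at 2.92 and 1.53 RPKM (fold 0.522, 0.424 to 0.643). The higher was PRR5 at 41.5 and 55.1 RPKM (fold 1.33, 1.27 to 1.39). The 7 shoot markers summed to 14521 RPKM in WT and 13239 in jmj17-1, with a median log2 ratio of 0.02 over the 6 analysed. Their sum was mostly RBCS1A and the light-harvesting gene LHCB1.3, whose fold was 0.851, and the phloem gene SUC2 had a fold of 0.878. The 8 root markers summed to 61.05 and 61.7 RPKM, with a median of 0.08 over the 7 analysed. WOX5, a gene of the root quiescent centre, stood at 0.943 and 2.06 RPKM, a plain fold of 2.18 (1.56 to 3.13) and a log2 ratio of 0.65 with 1 RPKM added. It was the 1 root marker higher by the smaller limit (14.3% of the 7, against 5.77% of all features). Both seed storage genes passed the 2-fold rule on that scale: CRU3 fell from 6.34 to 0.551 RPKM, and CRA1 fell from 7.39 to 1.70. The part of sampling time, organ proportions or seed remnants in the photoreceptor values was not tested.

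The sequence before the transcript start was read for the members at both ends of the range, PHYB and PHYD with the highest ratios and PHOT1 and CRY1 with the lowest. Each window holds the 250 bases upstream of the outermost annotated start in TAIR10.1, from 5′ to 3′ on the strand of the gene, with matches to the motifs searched in capitals.
PHYB (chr2:8139506-8139755, plus strand): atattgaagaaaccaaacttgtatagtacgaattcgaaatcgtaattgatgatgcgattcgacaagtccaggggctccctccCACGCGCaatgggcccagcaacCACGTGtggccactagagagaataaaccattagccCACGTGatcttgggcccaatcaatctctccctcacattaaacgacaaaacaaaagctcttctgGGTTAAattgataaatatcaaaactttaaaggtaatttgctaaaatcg
PHYD (chr4:9199841-9200090, minus strand): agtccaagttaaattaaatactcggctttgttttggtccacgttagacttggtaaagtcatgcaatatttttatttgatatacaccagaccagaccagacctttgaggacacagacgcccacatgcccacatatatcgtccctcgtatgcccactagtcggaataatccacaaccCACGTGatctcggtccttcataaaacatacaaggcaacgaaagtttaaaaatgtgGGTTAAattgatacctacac
CRY1 (chr4:5723401-5723650, plus strand): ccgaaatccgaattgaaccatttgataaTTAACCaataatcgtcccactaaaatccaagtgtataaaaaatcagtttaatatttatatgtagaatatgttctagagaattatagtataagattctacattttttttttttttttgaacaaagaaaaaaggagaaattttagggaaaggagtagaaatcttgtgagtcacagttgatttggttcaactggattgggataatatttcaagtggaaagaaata
PHOT1 (chr3:16816471-16816720, plus strand): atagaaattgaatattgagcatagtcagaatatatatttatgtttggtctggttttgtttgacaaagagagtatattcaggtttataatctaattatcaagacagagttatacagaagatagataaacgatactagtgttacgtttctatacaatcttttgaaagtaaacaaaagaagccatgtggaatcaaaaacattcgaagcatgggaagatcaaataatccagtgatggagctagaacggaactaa
The 6 motifs were looked for on both strands and no matches overlapped each other. The G-box CACGTG, the core to which PIF and HY5 proteins bind, was present in 2 of 10 members, PHYB and PHYD, and in 6.49% of 27443 windows of protein-coding genes. PHYB held it at bases -146 to -141 and -111 to -106 from the start, and PHYD at -75 to -70. The FHY3 and FAR1 binding site CACGCGC was in 1 member, PHYB, and in 1.06% of all windows. The GT-1 core GGTTAA was in 3 members, PHYB, PHYD and CRY1, and in 14.6% of all. No member held the I-box core GATAAG, the evening element AAAATATCT or the CCA1 binding site AAAAATCT, which 12.3%, 2.36% and 6.69% of all windows held. The longest run shared by the PHYB and PHYD windows had 15 bases and contained the GT-1 core, here in capitals.
PHYB and PHYD upstream: tgGGTTAAattgata
The other 7 windows had no match to any of the 6 motifs. A match describes letters in the window and does not show that a protein binds there.

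Around the receptors, 57 genes were listed and 53 were analysed. They make the pigment, bind the receptors or act next after them, and 5 of them encode other light receptors of the LOV and cryptochrome families. None passed the 2-fold rule. By the smaller limit 7 were higher (13.2%, against 5.77% of all features) and 6 lower (11.3%, against 5.69%), and 1 of the 6 is PLP, one of the other light receptors. Their median log2 ratio was 0.03, and -0.012 with the median of all features set to 0. The genes named here beyond the highest and lowest of each list were chosen after their values were seen.

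**Figure D5:**
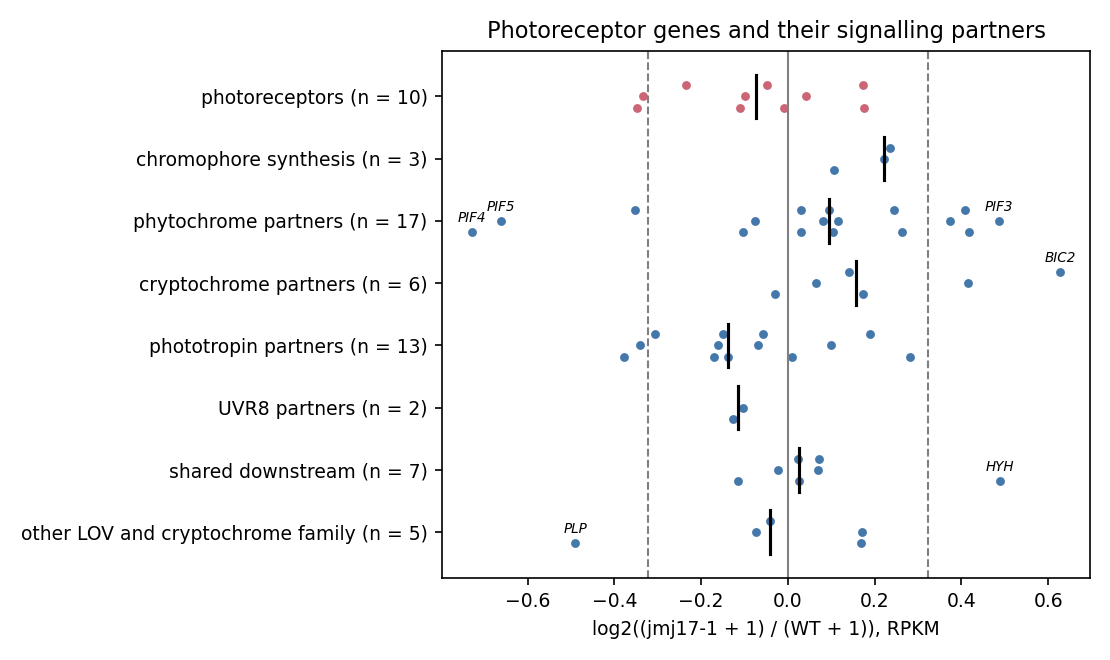
Log2 ratio of jmj17-1 over WT for the photoreceptor genes (red) and the partner genes analysed (blue), 1 point per gene, with a bar at each list's median and dashed lines at the smaller limit of 0.32. Phytochrome partners spread furthest, from PIF4 at -0.73 to PIF3 at 0.49, and BIC2 at 0.63 is the highest of all.

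Genes for the phytochrome pigment were all above 0 in log2 ratio, while 39.5% of all features lay below 0. HY2, the synthase of phytochromobilin, stood at 13.5 RPKM in WT against 16.1 in jmj17-1, and HY1, the plastid heme oxygenase, at 84.4 and 90.9. With HO2 between them at a log2 ratio of 0.22, the 3 analysed genes had a median of 0.22. HO3 and HO4 did not reach a mean of 1 RPKM.

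Among 17 phytochrome partners analysed, 4 were higher by the smaller limit (23.5%, against 5.77% of all features) and 3 lower (17.6%, against 5.69%). All 3 lower genes encode PIF factors. PIF4 stood at 55.1 RPKM in WT against 32.8 in jmj17-1 (fold 0.596, 0.569 to 0.625) and PIF5 at 36.8 and 22.9 (0.623, 0.589 to 0.658), with PIF1 at 15.9 and 12.3. The 4 higher genes were PIF3 at 7.25 and 10.6 RPKM, PIF8 at 3.84 and 5.42, the phytochrome-binding regulator TZP at 8.62 and 11.8, and the transcription factor gene VOZ1 at 15.3 and 20.1. FHY1, which carries phyA into the nucleus, stood at 14.1 and 13.3 RPKM, and the level of its relative FHL was under the filter.

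Of 6 cryptochrome partners analysed, 2 were higher by the smaller limit (33.3%, against 5.77% of all features), both encoding inhibitors of cryptochrome. BIC2, whose protein blocks the photoactivated pairing of CRY2, stood at 13.5 RPKM in WT against 21.4 in jmj17-1 (fold 1.59, 1.45 to 1.74), and BIC1 at 9.02 and 12.4. In the same list PPK2, a kinase that phosphorylates CRY2, was lowest at 30.5 and 29.9 RPKM. CIB1 was not analysed here.

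Phototropin partners had 9 of 13 genes below 0, where 39.5% of all features lay, and a median of -0.14. By the smaller limit 2 were lower (15.4%, against 5.69% of all features). These were PKS4, a signalling protein of phototropism, at 1.87 and 1.21 RPKM, and PKS2 at 10.5 and 8.08. PKS3 was the highest at 4.15 and 5.25 RPKM. NPH3, the protein that phototropins act on in bending, stood at 22.9 and 23.1 RPKM. Nearest to PHOT1 in its pair of levels, by distance over the log2 values of 2 libraries, were CHUP1, then HY1 and HMR. CHUP1, a chloroplast positioning gene, stood at 73.2 and 66.5 RPKM, HY1 at 84.4 and 90.9, and HMR at 54.5 and 65.55. HY1 and HMR were higher in jmj17-1 and PHOT1 lower, so this nearness does not show a shared direction.

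The UVR8 repressor genes RUP1, at 6.39 and 5.78 RPKM, and RUP2, at 4.54 and 4.16, both lay below 0 with intervals that contain 1. Among all features 39.5% lay below 0. Of 7 genes on which the receptors converge, 1 was higher by the smaller limit (14.3%, against 5.77% of all features). HYH, the relative of HY5, stood at 4.48 RPKM in WT against 6.69 in jmj17-1, while HY5 stood at 9.06 and 9.23 and COP1 at 12.4 and 13.1. SPA4, a COP1 partner, was the lowest at 4.62 and 4.19 RPKM.

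In the authors' deposited table, no photoreceptor gene was among the 410 features listed at a p of 0.05 or the 288 listed at 0.01. The partner gene PIF4 and the markers LHCB1.3 and CRU3 were among the 410, and JMJ17 was not. The p-values of the 10 members in the authors' deposited table ran from 0.129 for PHOT1 to 0.99 for PHYE. That p is computed from the RPKM values themselves and takes no account of transcript length or of the spread between seedlings.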

How the data were processed

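RNA was sequenced from 1 WT library and 1 jmj17-1 library of whole seedlings, prepared with a TruSeq RNA kit per the labels' protocols. RPKM values were calculated by the authors and deposited as a table of 26743 features. TAIR10 is the build named in the submitters' processing notes. The sources used here give no aligner, counter, feature length or strand setting. A Z score and an unadjusted p-value per feature were also deposited by the authors. Library columns were assigned by title, and 0 columns were left unassigned.

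Features with a mean of at least 1 RPKM were analysed with a pseudocount of 1 RPKM, which shrinks the change of genes at low level. Folds are plain ratios of RPKM. With 1 library per genotype, size rules of 2-fold and of a log2 ratio of 0.32 replaced tests. Depth was estimated from loci below 0.1 RPKM with 1 annotated transcript, of which 27.2% in WT and 30.8% in jmj17-1 stood at 1 read. Approximate reads used the shortest RefSeq transcript, which gives the fewest reads. The 95% intervals are exact (Clopper-Pearson for folds, Poisson for levels, conditional odds ratio for pairs) and cover counting error only, as PCR copies are not separate molecules.

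Positions and sequences came from RefSeq on TAIR10.1 and not from the deposited files. Proteins were translated from the longest coding sequence and aligned globally with Biopython 1.88, and transcripts were compared with BLAST+ 2.17.0 with words of 20 bases. Python 3.11.15 and SciPy 1.17.1 were used. The fold intervals and size rules were tested on simulated reads that varied by counting error only, and the other steps were not. Members and gene lists were chosen with earlier results of these data known. Named genes were all members, JMJ17, the highest and lowest gene of each partner list, and the 3 partner genes nearest to the member with the largest change. Other partner, clock and marker genes were named after their values were seen.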

Additional observations from a re-analysis of the deposited data

How the results depend on the processing

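The results were recomputed with a pseudocount of 0.1 or 5 RPKM, with no filter or a mean of at least 5 RPKM, with the median of all features set to 0, with libraries rescaled without organelle features, and with quantile normalization. The count of photoreceptor genes past 2-fold was 0 in all of these. By the smaller limit, 2 genes were lower and 0 higher, except that 1 was lower with a pseudocount of 5 RPKM, where PHOT1 stood at -0.33 and CRY1 at -0.315. PHOT1 ranged from -0.39 to -0.33 and CRY1 from -0.38 to -0.315 over these settings, PHYB from 0.13 to 0.18, and PHYD from 0.098 to 0.21. UVR8 alone changed sign, so that 8 members lay below 0 with the median set to 0 and under quantile normalization. The filter at a mean of 5 RPKM left PHYD out. The members' median stayed between -0.116 and -0.063. Over all features, 74 were 2-fold higher and 110 lower as reported, 142 higher with a pseudocount of 0.1 RPKM, 25 higher and 49 lower with 5 RPKM, and 71 lower at a mean of at least 5 RPKM. No paired analysis was possible because each genotype has 1 library. For the same reason no library could be left out.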

Other observations

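Of 5 other light receptors of the LOV and cryptochrome families, 2 lay above 0 in log2 ratio and 3 below, where 39.5% of all features lay below. The LOV protein gene PLP stood at 54.4 RPKM in WT against 38.4 in jmj17-1 (fold 0.707, 95% counting interval 0.675 to 0.739). PLP was the only one of the 5 past the smaller limit (20% lower, against 5.69% of all features). Its log2 ratio of -0.49 lay outside the range of the 10 photoreceptor genes. ZTL and LKP2, F-box proteins that sense blue light and act on the clock and on flowering, stood at 14.8 and 14.4 RPKM and at 10.03 and 9.49. FKF1, their relative in day-length timing, stood at 29.3 and 33.1 RPKM. CRY3, a cryptochrome of the DASH type found in organelles, stood at 8.35 and 9.52 RPKM and was the highest of the list at a log2 ratio of 0.17.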
